A study of Mus musculus with 8 samples.

Results

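The proteasome is the large protease that degrades proteins marked with ubiquitin. Its 20S core is a barrel built from rings of alpha subunits, which form the gate, and rings of beta subunits, some of which carry the proteolytic sites. The 19S cap sits on the barrel: its base holds AAA ATPases that unfold substrates, and its lid removes ubiquitin chains. Dedicated chaperones build both parts. In macrophages, interferon signalling adds immunoproteasome subunits that take the place of the constitutive catalytic ones and alter the peptides offered to T cells.

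The genes described here are the constitutive subunits, the other activators and inhibitor, and the assembly factors. They were taken by name as all symbols that begin with Psma to Psmg followed by a digit, leaving out the immunoproteasome genes Psmb8, Psmb9, Psmb10, Psme1 and Psme2 and entries marked as pseudogenes. This gave 45 of the 41444 genes listed. Of these, 16 encode the 20S core, 17 the 19S cap, 3 other activators or an inhibitor and 7 assembly factors. The name rule also took 2 genes that belong to neither: Psmc3ip, a cofactor of meiotic recombination, and Psme2b, a near copy of Psme2.

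Both groups were macrophages grown from the bone marrow of WT C57BL/6 mice in medium with M-CSF, the growth factor that drives macrophage differentiation. One group received vehicle and the other 6 nM SLIT2, a secreted ligand of ROBO receptors, for 16 hours, with 4 libraries each. Nothing in the labels says whether the libraries of a group came from separate animals or cultures, so p-values here speak only to library-to-library spread, which may be technical. Values are regularized-log (rlog) expression on a log2 scale, a transform that shrinks the differences of weakly expressed genes, and the depth per library is unknown.

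All 10 macrophage markers were abundant, with vehicle means from 11.82 for Fcgr1 to 18.8 for Lyz2. Lymphocyte markers (0 of 5 above a mean rlog of 4) and dendritic cell markers (0 of 5) were near the floor. Of 6 neutrophil markers 2 were above 4, of 4 mast cell markers 1, of 5 stromal and endothelial markers 4, and of 4 erythroid and megakaryocytic markers 2. The summed level of the erythroid and megakaryocytic list, carried by Pf4 and Ppbp, lay at 9.04 to 10.53 (log2) in vehicle and 9.95 to 12.3 with SLIT2, while Hbb-bs was listed at 0. The neutrophil sum, nearly all Csf3r, lay at 11.22 to 11.45 and 11.85 to 12.22. Ly6g was listed at 0. Sums for the mast cell list were 5.14 to 5.63 and 4.71 to 5.11 (Cpa3 and Fcer1a listed at 0), for the stromal and endothelial list 9 to 9.69 and 9.23 to 9.85, and for macrophages 19.08 to 19.57 and 19.04 to 19.56. The part of these cells in the results was not tested, and in bulk RNA fewer cells of a type and less RNA per cell cannot be told apart. The libraries also fell into 2 sets: Xist was 7.47 to 7.65 in replicates 1 and 2 of both groups and 12.69 to 12.79 in replicates 3 and 4, and Ddx3y, a Y-linked gene, was 10.75 to 10.83 and 5.9 to 6.45.

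Across the proteasome genes the SLIT2 libraries stood slightly higher. Of the 44 genes tested (mean rlog of at least 4), 33 had a positive difference and 11 a negative one, with a median difference of 0.09. Over all 11851 genes tested, the median difference was 0.0025 and 50.6% were positive. The differences were small: the median absolute difference was 0.115 for the proteasome genes and 0.113 for all genes. In limma with treatment as the only term, 5 proteasome genes rose (Psmb3, Psmb2, Psma7, Psmc5 and Psmd4) and 1 fell (Psme2b), at a Benjamini-Hochberg adjusted p below 0.05. Over all genes tested, 13.3% passed this threshold, 6.76% upward and 6.58% downward. Psmb3 and Psme2b alone also passed after quantile normalization, and with Psmb2 they alone passed without a filter on low values. The 5 that rose are 11.4% of the proteasome genes, against that 6.76%.

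Same-numbered vehicle and SLIT2 libraries deviated together, and a fit with the replicate number as a block gave 19 proteasome genes that rose, or 43.2%, and 1 that fell. The same block called 16.6% of all genes higher and 16.4% lower. A block on the 2 replicate sets in place of the numbers called 21 higher and 3 lower (Psmb6, Psmd8 and Psme2b), against 20% and 19.3% of all genes. All 19 genes called higher with the block on number belonged to the subunits and regulators, with 8 in the 20S core, 10 in the 19S cap and 1 among the other activators. Every SLIT2 library lay above every vehicle library for 12 of the 44 genes (27.3%), where 10.6% of all genes did so. Every SLIT2 library lay below for 1, Psme2b, where 9.99% of all genes did so. Within same-numbered pairs, the SLIT2 library was higher in all 4 pairs for 23 of 44 (52.3%), against 25.3% of all genes. If each set of duplicates is a single source, there are 2 sources a group. With duplicates averaged, limma called 0 of 44 at the adjusted threshold (5.81% of all genes passed), and 15 of 44 had an unadjusted p below 0.05, of which 14 were higher. Over all genes, 29.4% had such an unadjusted p, and 14.5% had it with a higher level.

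**Figure D1:**
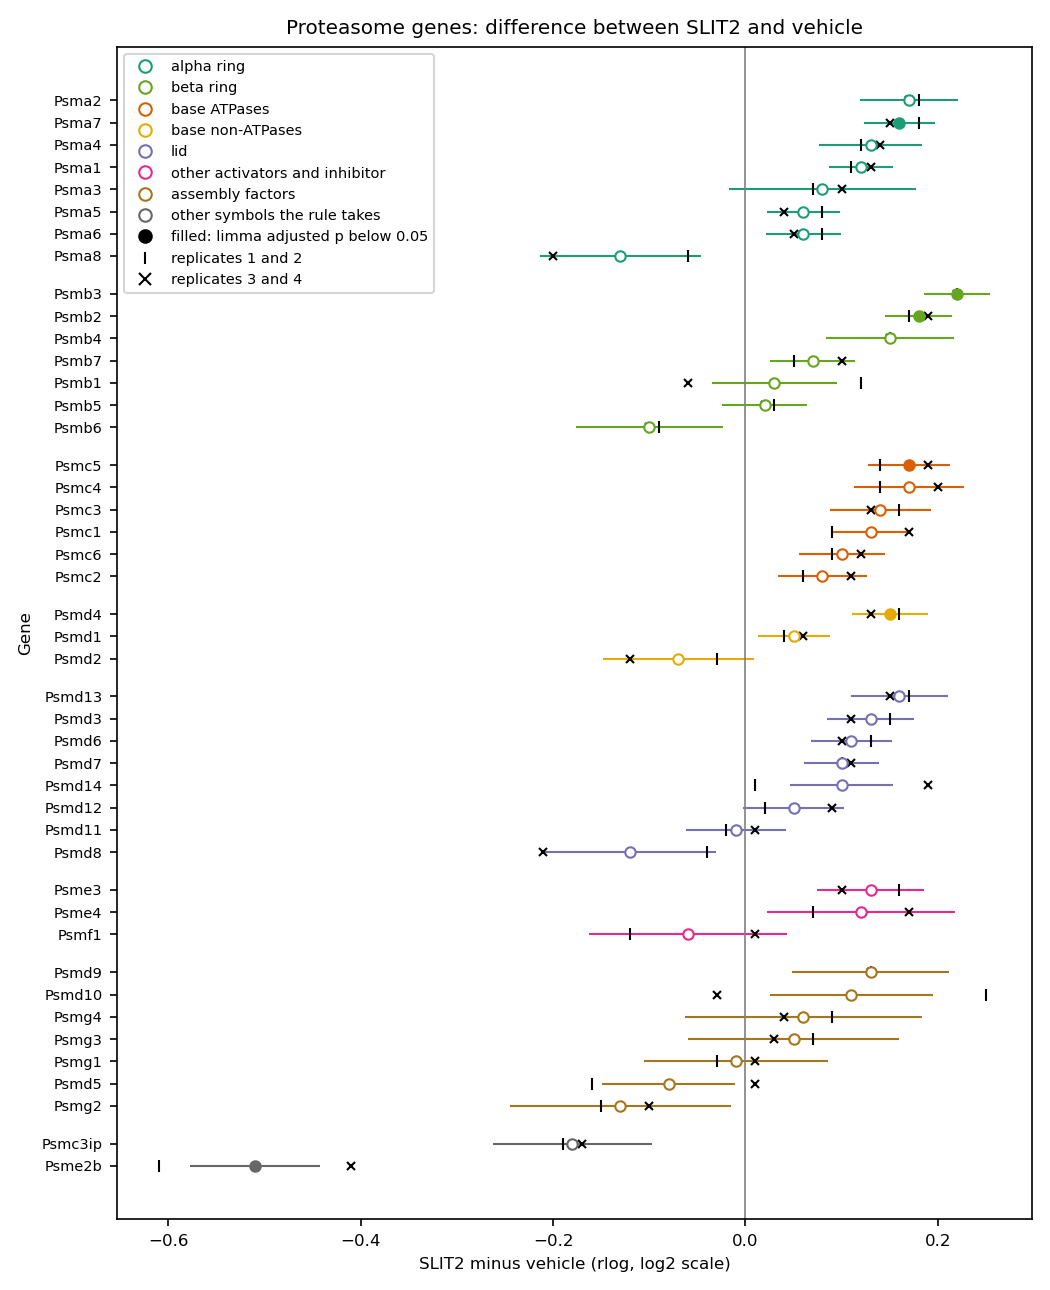
SLIT2 minus vehicle for each of the 44 proteasome genes tested (x axis, rlog, log2 scale), grouped by role. Circles give the difference over 4 libraries a group, with bars of 1 standard error from limma, filled where the adjusted p is below 0.05. Ticks and crosses give the differences within each replicate set. Most 20S and 19S genes lie to the right of 0, by at most 0.22, while the 7 assembly factors lie on both sides and Psme2b stands apart at -0.51.

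Promoter sequences were set beside these values because proteasome genes are known to be induced together by the transcription factor NFE2L1 through antioxidant response elements when proteolysis is inhibited, and many also hold CCAAT boxes. RefSeq promoter windows (GRCm38.p6, 250 bases before to 50 after the start) matched 37 of the 45 genes. Those not matched were Psma8, Psmb1, Psmb2, Psmb7, Psmc3, Psmd3, Psmd7 and Psmg2. The core of the element, TGACNNNGC searched on both strands, was in a window of 6 of the 37 genes (16.2%): Psmb5, Psmb6, Psmc6, Psmd12, Psmd9 and Psme4. Among all 27025 genes with a window, 14% held it. CCAAT, searched on both strands, was in 14 of 37 (37.8%) and in 41.1% of all genes. A match is a run of letters, not a measured binding site. The 60 bases before the start are shown for the genes whose match lies there and for Psmb3, the gene with the widest rise, which has no such core in its window. Capitals mark the core in the first 3 and CCAAT in the last, written 5′ to 3′ on the gene's strand.
Psmb5, chr14:54617996-54618055, minus strand: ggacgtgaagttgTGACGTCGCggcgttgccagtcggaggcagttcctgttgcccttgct
Psmb6, chr11:70525297-70525356, plus strand: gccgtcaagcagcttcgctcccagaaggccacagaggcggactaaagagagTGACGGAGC
Psmd9, chr5:123228130-123228189, plus strand: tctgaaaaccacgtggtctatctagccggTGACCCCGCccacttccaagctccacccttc
Psmb3, chr11:97703374-97703433, plus strand: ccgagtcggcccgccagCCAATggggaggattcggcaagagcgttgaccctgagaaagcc
Counted from the start, with -1 the base just before it, the core began at -47 in Psmb5, at -9 in Psmb6 and at -31 in Psmd9. The genes shown lie on both sides of the range of differences. Psmb3 had the widest rise at 0.22, Psmb5 and Psmb6 had 0.02 and -0.10, and Psmd9 had 0.13. Over the 6 genes with the core, the median difference was 0.075 and 0 passed the treatment-only threshold, which 13.3% of all genes passed. Over the 30 tested genes whose window lacks it, the median was 0.09, and 5 passed: Psmb3, Psma7, Psmc5 and Psmd4, which rose, and Psme2b, which fell. Psmb2 had no window. The 13 tested genes with CCAAT had a median of 0.12 and the 23 without had 0.05. The threshold was passed by 3 of the 13 and by 2 of the 23, Psme2b among the latter. Whether either motif goes with the differences was not tested.

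The alpha ring was higher with SLIT2 in 7 of its 8 genes, with a median difference of 0.1. Psma7 (chr2:180036374-180042433, GRCm38), an alpha subunit of every constitutive barrel, rose. Its rlog values were 11.54, 11.59, 11.58 and 11.62 in vehicle replicates 1 to 4 and 11.71, 11.77, 11.77 and 11.72 with SLIT2. The groups did not overlap, and the difference was 0.16 ± 0.0371 (limma SE; adjusted p = 0.0258), a level 11.7% higher. The call was lost without SLIT2 replicate 2 or 3 or without vehicle replicate 1, 2 or 3, with an adjusted p of at most 0.0767.

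Psma2 had the widest difference of the alpha ring, at 0.17. Its values were 11.01, 11.03, 11.12 and 11.13 in vehicle and 11.15, 11.24, 11.31 and 11.27 with SLIT2. Each SLIT2 library lay above all vehicle libraries, and replicates 3 and 4 were the higher ones in both groups. The limma adjusted p was 0.0643, and 0.00571 with the replicate block. Psma1, Psma3 and Psma4 also passed with the block (adjusted p = 0.0155, 0.0468 and 0.00881), with differences of 0.12, 0.08 and 0.13. Psma6 had the smallest difference, 0.06. Its values of 11.65, 11.7, 11.63 and 11.69 in vehicle overlapped those of 11.71, 11.79, 11.72 and 11.69 with SLIT2. Psma8 is a testis-specific alpha subunit that replaces Psma7 in germ cells. It was weakly expressed, at 5.49 in vehicle and 5.37 with SLIT2 (difference -0.13, adjusted p = 0.396).

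Of the 7 beta subunits tested, 2 rose, where 6.76% of all genes did. Both are structural, but the structural Psmb4 and Psmb1 did not pass, nor did the catalytic ones. Psmb3 (chr11:97703399-97713500, GRCm38), a structural beta subunit, had values of 10.91, 10.89, 10.89 and 10.94 in vehicle and 11.12, 11.11, 11.14 and 11.13 with SLIT2. All vehicle libraries lay within a narrow band below all SLIT2 libraries, and the difference was 0.22 in both replicate sets. This is 16.3% (0.22 ± 0.0346, limma SE; adjusted p = 0.0048). A copy annotated as AC114990.1 matches 80.7% of its transcript at 97.1% identity. That copy is not among the genes listed, so whether it took reads is unknown. Psmb2 (chr4:126677630-126709714, GRCm38), another structural beta subunit, had values of 11.01, 11, 11.01 and 11.03 in vehicle and 11.16, 11.18, 11.21 and 11.21 with SLIT2. These groups were as cleanly apart, by 0.18 ± 0.0345 (adjusted p = 0.0121). Psmb4 had a difference of 0.15 in each set, with adjusted p = 0.204, and 0.0062 with the replicate block. Its vehicle sets differed by 0.15. Psmb1 had a difference of 0.12 in the set of replicates 1 and 2, but -0.06 in the other set (0.03 over both, adjusted p = 0.823).

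The catalytic subunits are Psmb6 (caspase-like), Psmb7 (trypsin-like) and Psmb5 (chymotrypsin-like). Psmb5 had the smallest difference of the ring, 0.02, with 11.17, 11.17, 11.21 and 11.29 in vehicle and 11.19, 11.2, 11.27 and 11.27 with SLIT2. The ranges of the groups nearly coincide. A copy of Psmb5 annotated as Gm3375 matches 88.4% of its transcript at 98.9% identity, and it too is not among the genes listed. Psmb6 was the only beta subunit tested with a negative difference: 12.11, 12.18, 12.27 and 12.4 in vehicle and 12.04, 12.07, 12.23 and 12.24 with SLIT2. The SLIT2 library was lower in every same-numbered pair, but the groups overlapped, and the difference of -0.10 had adjusted p = 0.501. With a block on replicate number it was 0.0504, and with a block on the set 0.0454, which passes as lower. Psmb7 had 11.38, 11.34, 11.34 and 11.4 in vehicle and 11.34, 11.48, 11.46 and 11.47 with SLIT2, a difference of 0.07 (adjusted p = 0.358). Its SLIT2 replicate 1 stood at the vehicle level. Psmb7 shares 405 exonic bases with Nek6 on the opposite strand, and the sources used here do not say whether counting used the strand. Psmb11, the catalytic subunit of the thymus-specific proteasome, was not tested, at 2.95 in vehicle and 2.96 with SLIT2.

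**Figure D2:**
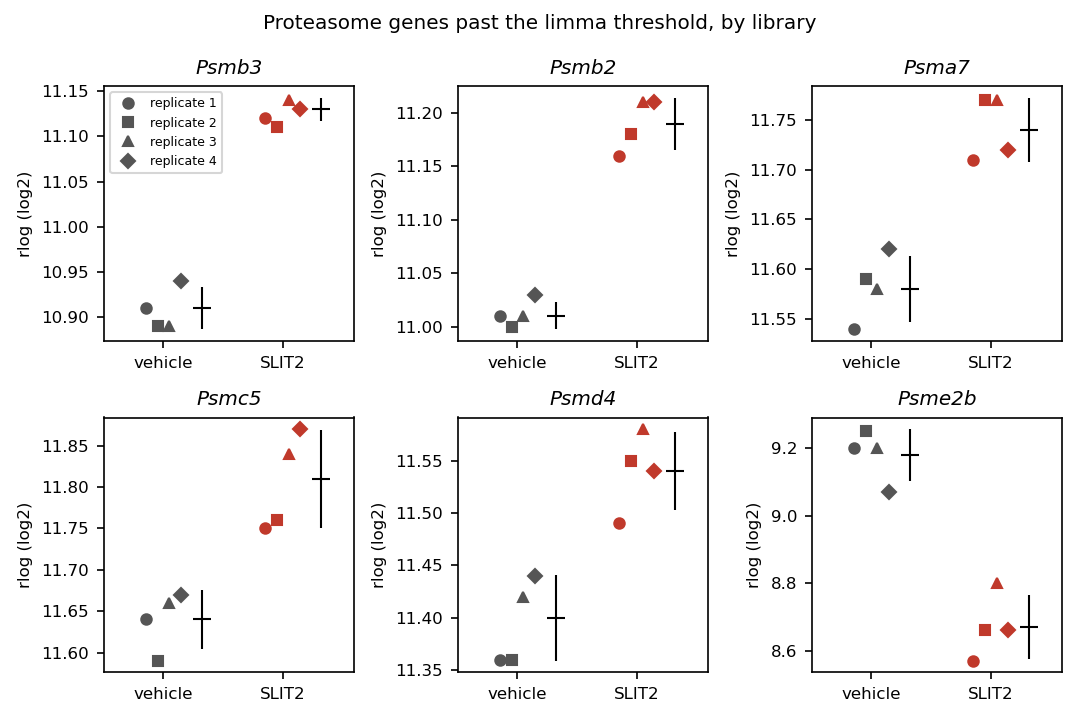
rlog values (log2, y axis, with a separate range in each panel that does not start at 0) of the 6 proteasome genes past the limma threshold, by library. Shapes mark the replicate number, grey is vehicle and red is SLIT2, and the bars to the right of each group give its mean and SD over 4 libraries. In each panel the groups do not overlap: 5 genes are higher with SLIT2 and Psme2b is lower.

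Within each library, the constitutive catalytic subunit was compared with the immunoproteasome subunit that takes its place. The difference of their rlog values cancels the scaling of the library. Psmb6 minus Psmb9 was 2.91, 2.83, 2.95 and 2.93 in vehicle and 2.46, 2.45, 2.67 and 2.69 with SLIT2. All SLIT2 libraries were below all vehicle libraries, by -0.42 and -0.26 in the 2 sets, and the mean difference was -0.34 (exact two-sided permutation test over 70 arrangements, p = 0.0286, which is the smallest possible; 0.0429 adjusted over 3 pairs). Psmb7 minus Psmb10 was 0.95, 0.9, 0.84 and 0.87 in vehicle and 0.3, 0.36, 0.56 and 0.49 with SLIT2. Here too the groups were apart, by -0.46 (exact permutation p = 0.0286, adjusted 0.0429), with -0.6 in the first replicate set and -0.33 in the other. Psmb5 minus Psmb8 was 1.05, 0.88, 1.28 and 1.24 in vehicle and 0.62, 0.68, 1.2 and 1.09 with SLIT2. The groups overlapped and the difference of -0.22 (-0.32 and -0.12 in the sets) did not pass (exact permutation p = 0.257, also 0.257 adjusted), although the SLIT2 library was lower in each of the 4 same-numbered pairs. A sign-flip test on 4 same-numbered pairs cannot go below 0.125, which all 3 pairs reached. The permutation test treats the 8 libraries as exchangeable. If each set of duplicates is a single source, a permutation p of 0.0286 could not be reached.

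In these pairs the immunoproteasome genes had the wider differences. Psmb10 rose by 0.54 (limma adjusted p = 0.000618), with 0.65 and 0.43 in the 2 sets. Psmb9 rose by 0.24 (adjusted p = 0.0398), with 0.33 and 0.16. It shares 212 exonic bases with Tap1 on the opposite strand, a gene with a mean rlog of 10.37. Psmb8 had a difference of 0.24 (adjusted p = 0.295; 0.026 with the replicate block), with 0.34 and 0.14. The interferon-inducible activator subunits Psme1 and Psme2 rose by 0.23 and 0.35 (adjusted p = 0.00459 and 0.0493). Thus 4 of the 5 genes left out by the rule rose, where 6.76% of all genes did. Psmb9 kept its call only without vehicle replicate 4, and Psme2 only without SLIT2 replicate 1 (adjusted p up to 0.107 and 0.124 with 1 library left out). With duplicates averaged, Psme2 passed (0.0423) and Psmb9, Psmb10 and Psme1 did not (0.138, 0.0573 and 0.0716).

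**Figure D3:**
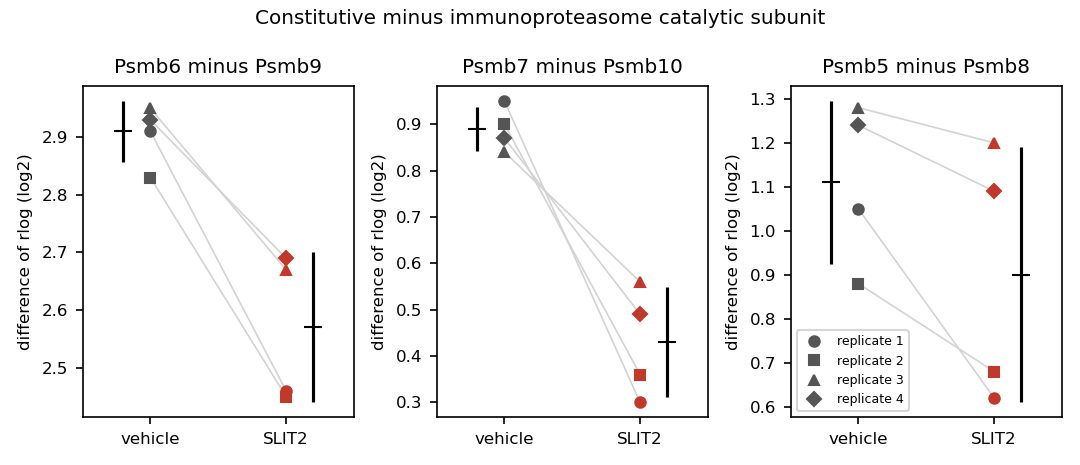
Constitutive minus immunoproteasome catalytic subunit within each library (y axis, difference of rlog values, log2; each panel has its own range), for the 3 exchangeable pairs. Shapes mark the replicate number, lines join same-numbered libraries, and bars give the mean and SD over 4 libraries. The SLIT2 values lie below all vehicle values for Psmb6 minus Psmb9 and Psmb7 minus Psmb10 and overlap them for Psmb5 minus Psmb8.

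In the base of the 19S cap all 6 ATPases were higher with SLIT2 in all 4 same-numbered pairs (25.3% of all genes were), with differences from 0.08 to 0.17 and a median of 0.135. Psmc5 (chr11:106256154-106263120, GRCm38), one of these unfoldases, had 11.64, 11.59, 11.66 and 11.67 in vehicle and 11.75, 11.76, 11.84 and 11.87 with SLIT2. The groups did not overlap. It rose by 0.17 ± 0.043 (limma SE; adjusted p = 0.0398), and the call was lost without any 1 of the 8 libraries (adjusted p from 0.0527 to 0.106). Psmc4 had the widest difference by a small margin, also 0.17, with 11.41, 11.36, 11.46 and 11.49 in vehicle and 11.48, 11.57, 11.71 and 11.63 with SLIT2. Its SLIT2 replicate 1 fell within the vehicle range, and the adjusted p was 0.102, and 0.0162 with the block. Psmc2 had the smallest, 0.08, with 11.53, 11.58, 11.45 and 11.44 in vehicle and 11.6, 11.63, 11.55 and 11.55 with SLIT2. It was the ATPase that did not pass with the block on number (adjusted p = 0.0536), though it did with the block on the set (0.0253). Psmc1, Psmc3 and Psmc6 did pass with the block on number (0.0163, 0.00826 and 0.0238), with differences of 0.13, 0.14 and 0.10.

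The non-ATPase subunits of the base bind ubiquitin chains and shuttle proteins. Psmd4 (chr3:95032694-95042614, GRCm38), a ubiquitin receptor, had 11.36, 11.36, 11.42 and 11.44 in vehicle and 11.49, 11.55, 11.58 and 11.54 with SLIT2. The groups were apart by 0.15 ± 0.0396 (limma SE; adjusted p = 0.0472), and this call too was lost without any 1 of the 8 libraries (0.0616 to 0.123). The scaffold Psmd1 had 12.53, 12.58, 12.51 and 12.52 in vehicle and 12.55, 12.63, 12.59 and 12.55 with SLIT2, a difference of 0.05 with overlapping groups. Psmd2, the other scaffold, had a difference of -0.07 and was lower with SLIT2 in each same-numbered pair (adjusted p = 0.638).

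In the lid, 0 of 8 genes passed the treatment-only threshold in limma, where 13.3% of all genes did. An unadjusted p below 0.05 was found for 4. The share of all genes with one in this fit was not computed, here or for the groups and lists below. It is at least that 13.3%. With the block 4 rose, or 50%, against 16.6% of all genes. Those 4 were Psmd3, Psmd6, Psmd7 and Psmd13 (adjusted p with the block 0.0172, 0.0191, 0.0314 and 0.0419), each with groups that did not overlap. Psmd13, a structural lid subunit, had the widest difference, 0.16. Its values were 11.56, 11.46, 11.55 and 11.55 in vehicle and 11.61, 11.75, 11.76 and 11.63 with SLIT2 (adjusted p = 0.08). Vehicle replicate 2 was the low library, and 342 exonic bases overlap Sirt3 on the opposite strand. Psmd11 had the smallest difference, -0.01, with 11.56, 11.49, 11.38 and 11.42 in vehicle and 11.5, 11.51, 11.4 and 11.42 with SLIT2. A730017L22Rik, with a mean rlog of 7.96, matches 52.7% of the Psmd11 transcript at 97.9% identity, so reads could be split between them. Psmd14, the lid's deubiquitinase, had 11.22 and 11.24 in vehicle replicates 1 and 2 against 11.23 and 11.24 with SLIT2, and 11.15 and 11.25 in vehicle replicates 3 and 4 against 11.39 in both. Psmd8 had differences of -0.04 and -0.21 in the 2 sets. Over both, its adjusted p was 0.451, 0.0776 with the block on number and 0.0387 with the block on the set.

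The 3 other regulators did not pass in treatment-only limma, where 13.3% of all genes did, and 0 of them had an unadjusted p below 0.05. Psme3, the nuclear activator that acts without ubiquitin, had 11.42, 11.48, 11.35 and 11.36 in vehicle and 11.61, 11.6, 11.45 and 11.45 with SLIT2. Each SLIT2 library was above its vehicle partner but the groups overlapped, and the difference of 0.13 had adjusted p = 0.202, and 0.0198 with the block. Psme4, an activator with a role in chromatin and DNA repair, differed by 0.12 (adjusted p = 0.0634 with the block on number and 0.0276 with that on the set). Psmf1, a regulator first described as an inhibitor, had 9.85, 9.74, 9.43 and 9.58 in vehicle and 9.73, 9.62, 9.6 and 9.42 with SLIT2, a difference of -0.06 (-0.12 and 0.01 in the sets).

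Of the assembly factors, 0 of 7 passed in limma without the block (13.3% of all genes did) or with it (16.6% higher and 16.4% lower). In the treatment-only fit 0 had an unadjusted p below 0.05. Their median difference was 0.05, with 4 positive and 3 negative, against 0.1 for the 32 tested genes of the 26S particle (core and cap). This difference in counts was not itself tested. The limma SEs of the assembly factors ran from 0.0688 for Psmd5 to 0.123 for Psmg4. Those of the 5 genes that rose were at most 0.043, so equal differences pass less easily among the assembly factors. Psmd9, a chaperone of the base, had the widest difference, 0.13. Its values were 9.63, 9.36, 9.62 and 9.64 in vehicle and 9.56, 9.68, 9.8 and 9.71 with SLIT2, so vehicle replicate 2 was low and the groups overlapped. It shares 1849 exonic bases with Gm26745 on the opposite strand. Psmg2, which pairs with Psmg1 in building the alpha ring, had -0.13 and was lower in each same-numbered pair (adjusted p = 0.566). Psmg1 had the smallest difference, -0.01, with 8.28, 8.29, 8.5 and 8.48 in vehicle and 8.18, 8.33, 8.45 and 8.54 with SLIT2. Replicates 3 and 4 were above replicates 1 and 2 in both groups. Psmg3 and Psmg4, the other pair of alpha ring chaperones, had differences of 0.05 and 0.06 (adjusted p = 0.859 and 0.82), and Psmd5, a base chaperone, had -0.08 (-0.16 and 0.01 in the sets; adjusted p = 0.566). Psmd10, an X-linked base chaperone also known as gankyrin, was 0.25 higher with SLIT2 in the first 2 replicates, and its difference was -0.03 in the other set.

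Summarised by library, the median of the 26S genes, centred on each gene's vehicle mean, was 0, -0.02, 0 and 0.03 in vehicle replicates 1 to 4 and 0.07, 0.12, 0.11 and 0.11 with SLIT2. Each SLIT2 library was above each vehicle library. For the assembly factors the same medians were -0.05, -0.12, 0.1 and 0.09 in vehicle and -0.14, -0.06, 0.06 and 0.15 with SLIT2. There, replicates 3 and 4 were above replicates 1 and 2 in both groups. In vehicle, the difference between the sets was wider than the SLIT2 difference for 6 of the 7 assembly factors, for 8 of the 32 genes of the 26S particle and for 16 of all 44 (36.4%), against 61.1% of all genes tested. Psmg4 differed most between the vehicle sets upward, by 0.34, and Psme4 downward, by -0.31. The SLIT2 effect itself differed between the sets for 0 of 44 genes in limma's interaction test at the adjusted threshold, which 4.4% of all genes passed. An unadjusted p below 0.05 was found for 3: Psmd8, Psmd10 and Psmd14 (0.00872, 0.00895 and 0.00845). The share of all genes with such an interaction p was not computed.

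**Figure D4:**
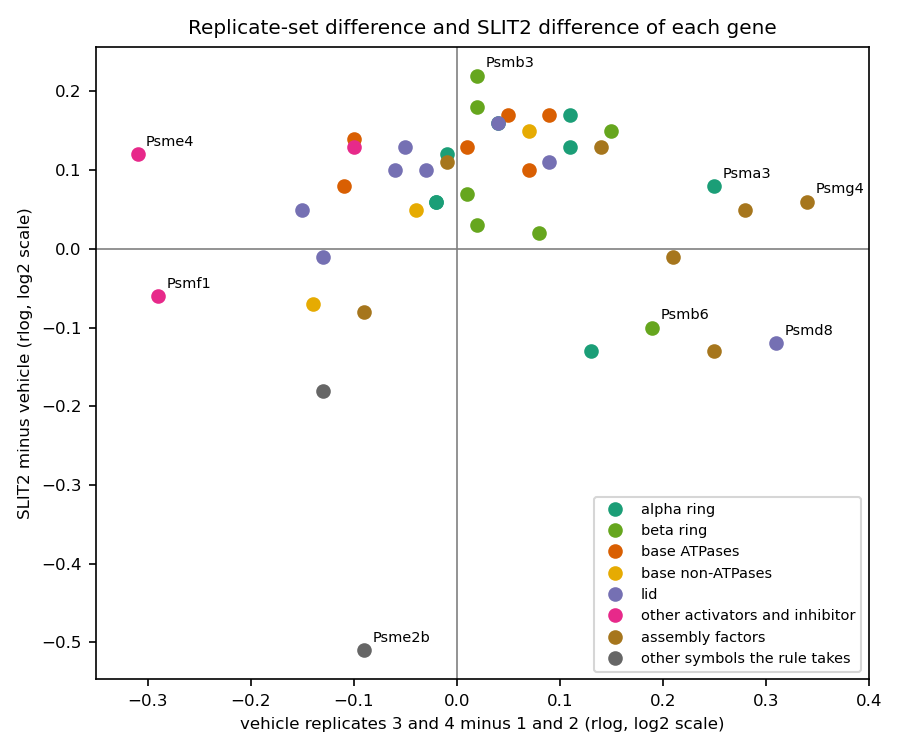
SLIT2 minus vehicle (y axis, rlog, log2 scale) against the difference between the vehicle libraries of replicates 3 and 4 and those of replicates 1 and 2 (x axis, same scale), for the 44 proteasome genes tested, coloured by role. Psmb3 lies high with a set difference of 0.02, while Psmg4, Psmd8, Psme4 and Psmf1 lie far to the sides, with set differences wider than their SLIT2 differences.

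The steepest change of the 44 was in a gene that is no constitutive subunit. Psme2b (chr11:48945354-48946190, GRCm38) had 9.2, 9.25, 9.2 and 9.07 in vehicle and 8.57, 8.66, 8.8 and 8.66 with SLIT2. The groups did not overlap, and it fell by 0.51 ± 0.0678 (limma SE; adjusted p = 0.00199), with -0.61 and -0.41 in the 2 sets. Its transcript matches that of Psme2 over 794 bases at 99.37% identity, which is 94.9% of its length. Psme2 itself rose, with 11.72, 11.72, 11.96 and 11.96 in vehicle and 12, 12.11, 12.36 and 12.3 with SLIT2. With such identity the split of reads between the copies is uncertain, and both values are so as well. Psmc3ip had 5.69, 5.86, 5.63 and 5.66 in vehicle and 5.66, 5.52, 5.48 and 5.47 with SLIT2, a difference of -0.18 (adjusted p = 0.219). It shares 385 exonic bases with Mlx on the opposite strand, a gene with a mean rlog of 10.43.

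Levels were compared between genes only per kb of transcript, from vehicle means and GENCODE lengths. The 14 core genes other than Psma8 and Psmb11 had a median level of 11.33 (log2 per kb), from 9.53 for Psma2 to 12.57 for Psmb6. The 17 cap genes had a median of 10.7, from 9.73 for Psmd3 to 11.99 for Psmd8. Assembly factors were lower, with a median of 8.56, from 8.19 for Psmd9 to 9.51 for Psmd10. The other activators and the inhibitor had a median of 8.99. With the shortest principal transcript in place of the longest, the cap median was 10.78 and the assembly median 8.56. Psmd10 lay below Psma2 with the longest transcript and above it, at 9.55, with the shortest.

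**Figure D5:**
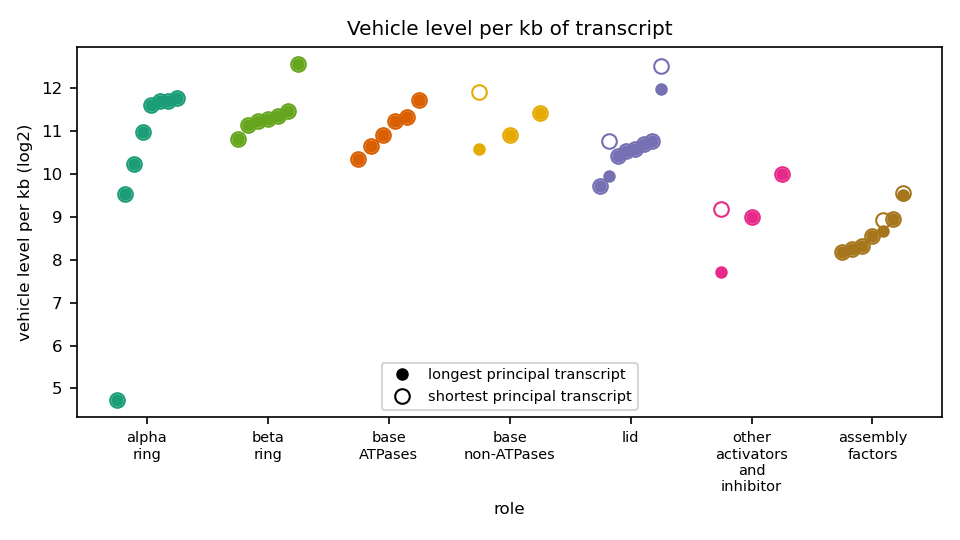
Vehicle level per kb of transcript (y axis, log2; rlog mean of 4 libraries minus log2 of length in kb) of the proteasome genes tested, by role. Filled points use the longest principal transcript and open circles the shortest. Core and cap genes lie mostly between 10 and 12, and assembly factors lie below 10, with the testis-specific Psma8 at 4.73.

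Proteasome genes whose symbols lie outside the name rule, were listed with associated proteins. Of 18 listed, 17 were tested, with a median difference of 0.005. In limma 0 rose (3 were higher at an unadjusted p below 0.05) and 2 fell (6.58% of all genes fell). With the block 3 were higher and 4 lower, against 16.6% and 16.4% of all genes. Zfand2a, a stress-induced protein that binds the cap, fell by 0.25 (adjusted p = 0.0106), and Usp14, a cap-bound deubiquitinase, fell by 0.15 (adjusted p = 0.0391). The call of Usp14 held only without vehicle replicate 3 when 1 library was left out (adjusted p up to 0.102), and neither passed with duplicates averaged (0.065 and 0.135). Cap subunits on this list are Adrm1 and Sem1. Adrm1, a ubiquitin receptor, had a difference of 0.13 and Sem1, a small lid subunit, had 0.16 (adjusted p = 0.0593 and 0.344; 0.0281 and 0.00478 with the block). Pomp, the maturation factor of the core, had 0.07 (adjusted p = 0.74).

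Among genes that make, process or compete with NFE2L1, 0 of 14 tested passed in limma, where 13.3% of all genes did. With the block 3 rose, where 16.6% of all genes did. Treatment-only limma gave 5 an unadjusted p below 0.05, for which no share over all genes was computed. Bach1, a repressor that binds the same elements, had the smallest p: a difference of 0.31 with adjusted p = 0.06, and 0.000332 with the block. Nfe2l1 itself had 0.22 in replicates 1 and 2 but 0.02 in the other set, and these differed in limma's interaction test (adjusted p = 0.0459). Over both sets the difference was 0.12 (adjusted p = 0.185). Nfe2l3 was listed at 0. Of 6 ubiquitin genes and E1 enzymes, 0 passed in limma and 1 had an unadjusted p below 0.05: the polyubiquitin gene Ubb, with 0.21 (adjusted p = 0.0656; 0.00714 with the block). The block called 1 of these 6 higher and 2 lower, against 16.6% and 16.4% of all genes.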

How the data were processed

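Per the labels' protocols, a stranded kit for mRNA was used and both ends were read for 101 bp. The submitters' processing notes name the tools STAR, Salmon, DESeq2, Picard 2.23.8, SAMtools 1.7 and FastQC 0.11.9, and the builds mm10 and GRCm38. The sources used here do not give their settings. The authors deposited rlog values (log2 scale, 2 decimals) for 8 libraries and 41444 genes. They hold no counts, so depth per library and its error are unknown.

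The 11851 genes whose mean rlog reached 4 were fitted in limma 3.58.1 (R 4.3.3; mean-variance trend, two-sided test), SLIT2 against vehicle, with treatment as the only term and Benjamini-Hochberg adjustment over all of them (threshold 0.05). Alternatives were blocks on replicate number or set, averaged duplicates, other filters, variance priors and scalings, and leaving out each library. The steps were tested on simulated data. For limma, errors were drawn separately for each library around the set shifts, so duplicates from a single source were not covered. The members, lists and tests were chosen with earlier results of these data known. Values per library were given for genes past the threshold, the widest and smallest difference in each role, and the catalytic subunits; from other lists, called members or that with the smallest p. Others were named after their values were seen.

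What the labels' replicate numbers mark is not stated. Deviations of same-numbered libraries from their group means correlated at 0.637, 0.671, 0.753 and 0.587 across all genes tested, and same-numbered samples were treated as pairs. Libraries of different number within a set correlated as highly (0.609, 0.722, 0.679 and 0.601), so what pairs share is the set. Gene positions, overlaps and transcript lengths came from GENCODE M21 (GRCm38), and copies from blastn 2.17.0. Promoter windows came from RefSeq (GRCm38.p6).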

Additional observations from a re-analysis of the deposited data

Results flagged for a closer look

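In 3 of 88 groups of 4 libraries (44 genes, 2 treatments), 1 library stood far from the others for a gene. Chance flags about 1 in 20 groups. Psmb7 was 11.34 in SLIT2 replicate 1, where the other 3 were 11.46 to 11.48. Psmd13 was 11.46 in vehicle replicate 2, with the others at 11.55 to 11.56. Psmd9 was 9.36 in vehicle replicate 2, with the others at 9.62 to 9.64.

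Among the pathway genes outside the name rule, Nfe2l1 had a SLIT2 effect of 0.22 in replicates 1 and 2 and 0.02 in the other set. The difference of -0.2 between these effects passed limma's interaction test (adjusted p = 0.0459), which measures only the spread within duplicates.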

How the results depend on the processing

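The treatment-only fit called 5 proteasome genes higher. This count became 19 with the replicate block, 21 with the set block, 0 with duplicates averaged, 3 with equal library medians, 3 without a mean-variance trend, 2 with no filter on low values and 1 with quantile normalization. It ran from 2 to 4 when 1 library was left out. Psmb3 was called under all of these but the averaged duplicates (adjusted p = 0.0769), and Psmb2 and Psme2b in each fit that left out 1 library. The count of genes lower, 1, became 0 with duplicates averaged and 3 with the set block. The median difference of 0.09 moved to 0.0699 with quantile normalization and ran from 0.0758 to 0.103 with 1 library left out. Psmb6 minus Psmb9 (-0.34) and Psmb7 minus Psmb10 (-0.46) had the same sizes in the replicate block, where the adjusted exact p was 0.125, the smallest that 4 pairs allow. The first ran from -0.38 to -0.3 and the second from -0.51 to -0.42 with 1 library left out. Reversed directions were found for Psmb5 (-0.01 with quantile normalization) and, with 1 library left out, for Psmd11 (-0.03 to 0.03), Psmf1 (-0.13 to 0.01), Psmg1 (-0.07 to 0.05) and Psmg3 (-0.03 to 0.11). The causes were not tested. Depth is unknown, and shrinkage by rlog limits what weak genes such as Psma8 can show.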
